A study of Mus musculus with 4 samples.

Results

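Scavenger receptors and their relatives are cell surface proteins that take up modified lipoproteins, hyaluronan, glycoproteins and remnants of dead cells. They were followed here as a set of 8 genes, Mrc1, Lyve1, Stab1, Stab2, Scarf1, Scarb1, Cd36 and Msr1, chosen by gene symbol from the 18194 genes measured, and read by 16 of 34958 probe sets. The set was proposed with earlier results of these arrays in view, so that its values are given as a description and no test was made.

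The cells came from mouse Runx1Venus/+ ES cells, heterozygous for a Venus reporter placed in the endogenous Runx1 gene under its proximal promoter P2 and derived from CCE ES cells. They were differentiated for 6 days on OP9 stromal cells and sorted with dead cells left out, without further treatment, so that every population carries 1 reporter allele of Runx1. Population 1 was Runx1-Venus negative and positive for VE-cadherin and Flk1, and population 2 was positive for Runx1-Venus and VE-cadherin but CD41 negative. Population 3 was positive for all of Runx1-Venus, VE-cadherin and CD41, and population 4 was positive for Runx1-Venus and CD41 but VE-cadherin negative. The values come from 1 ES cell line and 1 Affymetrix array per population, so they carry no error between cultures. The methods also mention a replicate set of samples on Agilent arrays, which was not analysed here.

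Several of these receptors are known from the endothelium of liver and other sinusoids, where stabilins, the mannose receptor and LYVE-1 clear macromolecules from the blood. The same proteins occur on some macrophages, and LYVE-1 is best known as a hyaluronan receptor of lymphatic vessels. CD36 and SR-BI (Scarb1) belong to class B and handle fatty acids and lipoproteins, SR-A (Msr1) is a class A receptor of macrophages, and SREC-I (Scarf1) was first described as an endothelial receptor for acetylated lipoprotein.

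At the transcript level VE-cadherin and Runx1 followed the gates. Through populations 1 to 4, the VE-cadherin gene Cdh5 gave 5683, 3946, 4849 and 40.9, and Runx1 gave 55.3, 358, 1297 and 2440.2. The Flk1 gene Kdr lay at 906 in population 4, against 5866 in population 1. The CD41 gene Itga2b gave 667, 1135, 2418 and 1609.5, thus highest in population 3 and above 100 also in the CD41 negative population 2. The median signal over gene probe sets lay between 43.6 in population 2 and 56.9 in population 3, and 8097 to 8666 genes exceeded a signal of 100. In bulk samples of this kind, a lower signal from fewer expressing cells and one from less RNA per cell cannot be told apart.

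Promoter letters were at hand in RefSeq (GRCm38.p6) for Mrc1, Stab1, Stab2 and Cd36, in windows of 250 bases before to 50 bases after a start site. The core TGTGGT recognised by RUNX proteins, searched on both strands, occurred once among the 4 windows, in that of Stab2, where 16.9% of 27025 promoters hold it. The paper gives the Runx1 consensus as TGYGGT, with C or T at Y, and TGCGGT was not searched. The core GGAA of ETS factors, searched in the same way, occurred 6 times in each of the 4 windows, but 95.9% of all promoters hold it, with a median of 3 matches. GATAA, a core bound by GATA factors, occurred in 0 of the 4 windows and in 25.8% of all promoters. Of the GGAA matches 1 per gene is shown. Stretches of 30 bases are given for the 3 genes of this group that were lower in population 4 than in population 1, each with the match in capitals, since Runx1 defined the sort and ETS factors are general regulators of endothelial genes. A match describes the letters and is no evidence of binding.
Stab2, TGTGGT lying 73 bases before the start site, chr10:87007998-87008027, minus strand: ccactgagctccTGTGGTttctcagcctgg
Stab2, a GGAA match 28 bases before the start site, chr10:87007954-87007983, minus strand: ccttcctaaccagGGAAaggaaaagattta
Stab1, GGAA lying 28 bases before the start site, chr14:31168653-31168682, minus strand: ctgatacgcaggaGGAAatcctggtgggtt
Mrc1, GGAA on the opposite strand (read as TTCC), 35 bases before the start site, chr2:14229366-14229395, plus strand: taaaagggacagcTTCCtctgtcctccttt
The TGTGGT match of Stab2 lies inside the span that RefSeq annotates for the gene, which reaches beyond the start site used for the window, and did not overlap a GGAA match. These 3 genes were all lower in population 4 than in population 1, but their paths through populations 2 and 3 differed.

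Mrc1, encoding the mannose receptor CD206 (chromosome 2), had a signal of 2011 in population 1, 1593 in population 2, 3503 in population 3 and 25.0 in population 4. It was thus high in every VE-cadherin positive population, highest in population 3, and below 100 only in the VE-cadherin negative population 4. Population 4 was at least 35.0-fold lower than population 3 and at least 20.1-fold lower than population 1. Of 9468 genes whose signal exceeded 100 in any population, only 5 were further down in population 4 relative to population 3, with signals raised to 100. For genes below 100 in population 4, that order rests on the signal in population 3. Under the other scalings, floors and probe set choices, the place of Mrc1 in that order lay between the 2nd and the 13th lowest. Its signal in population 3 was 2.20-fold that of population 2, a difference that did not reach 2-fold after scaling on the array median (log2 ratio 0.75 in place of 1.14) or quantile normalisation (0.92). Mrc1 is read by 1 probe set, so that no second set of oligonucleotides bears on these values. The same limit holds for Stab1, Stab2 and Scarf1, each read by 1 probe set.

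Lyve1, the hyaluronan receptor gene (chromosome 7), showed the most pronounced peak of the set in population 3. Through populations 1, 2, 3 and 4 its brighter probe set gave 366, 227, 1504 and 57.5, and the dimmer one 252, 164, 957 and 16.6. Both probe sets were thus lower in population 2 than in population 1, highest in population 3 and below 100 in population 4. Population 3 was 6.62-fold higher than population 2 by the first probe set and 5.84-fold higher by the second. This was the 4th highest of the 9468 ratios of population 3 over population 2, and it stayed between the 3rd and the 12th highest in the other settings. Against population 1, population 3 was 4.11-fold higher by the first probe set and 3.80-fold higher by the second. Population 4 was at least 15.0-fold and at least 9.57-fold lower than population 3, again in the order of the probe sets.

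**Figure D1:**
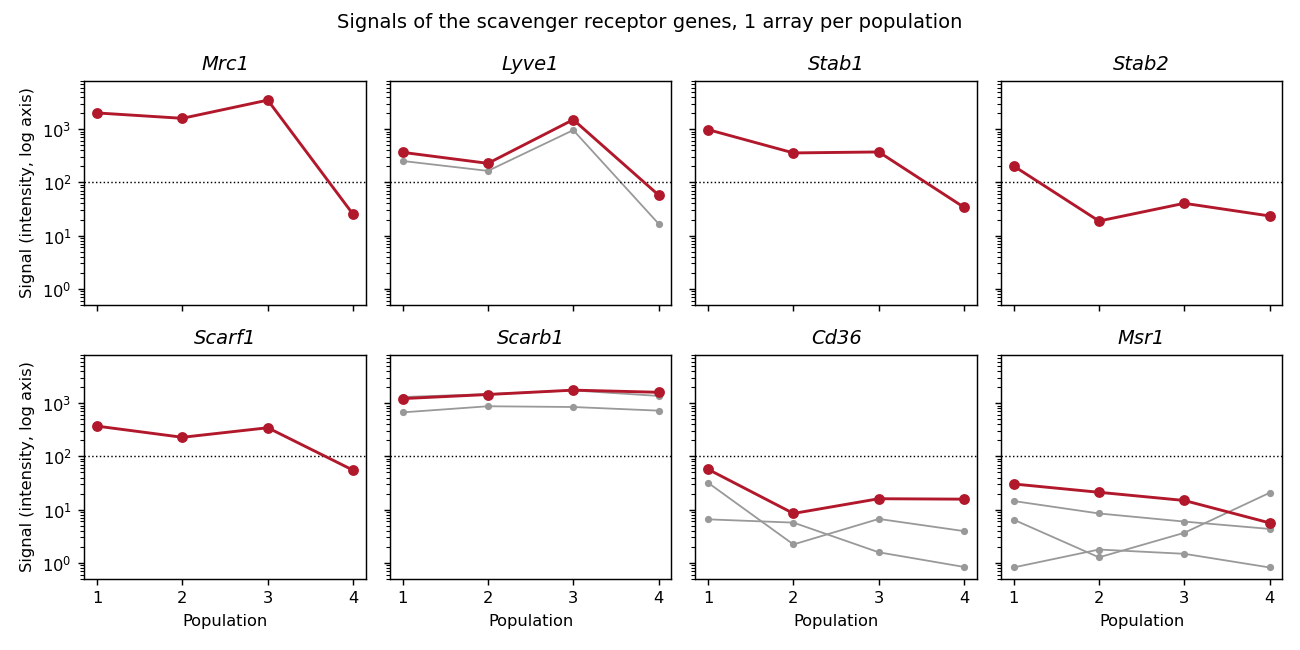
Signal (intensity, log axis) of the 8 genes by population, each measured on 1 array and hence drawn without error bars. Red lines give the probe set with the highest mean signal, grey lines the other probe sets, and the dotted line a signal of 100. Mrc1 lies at 25.0 and Lyve1 at 57.5 in population 4, against 3503 and 1504 in population 3, while Cd36 and Msr1 stay below 100 throughout.

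Both stabilin genes had their highest signal in the Runx1-Venus negative endothelium. Stab1 (chromosome 14), whose product takes up SPARC and acetylated lipoprotein, had signals of 978 in population 1, 357 in population 2, 372 in population 3 and 33.8 in population 4. It was thus lower both in population 2 than in population 1 and in population 4 than in population 3, with populations 2 and 3 differing 1.04-fold. Population 2 was 2.74-fold lower than population 1, population 4 at least 3.72-fold lower than population 3, and population 4 at least 9.78-fold lower than population 1.

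Stab2 (chromosome 10), the main hyaluronan clearance receptor of liver sinusoids, exceeded 100 in population 1 only. Its signals were 203, 18.7, 40.3 and 23.3 in populations 1 to 4. Each Runx1-Venus positive population was thus at least 2.03-fold lower than population 1, and among these 3 no order can be given, since all lie under 100. With signals raised to 50 these log2 ratios were -2.02, and with signals raised to 200 they were -0.02, since the signal of population 1 lies close to that floor. On a scale set by the hybridisation controls, tried once the data had been seen, they were -0.86 and no longer reached 2-fold.

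Scarf1 (chromosome 11), the class F receptor SREC-I, had signals of 369.6, 228, 345 and 54.9 in populations 1 to 4. The VE-cadherin positive populations lay within 1.62-fold of one another, and population 4 was at least 3.45-fold lower than population 3 and at least 3.70-fold lower than population 1. The dip in population 2, a log2 ratio to population 1 of -0.70, and the higher value in population 3, a log2 ratio to population 2 of 0.60, were under 2-fold on the deposited scale. Scaled on the hybridisation controls, the second of these was 1.06.

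Scarb1 (chromosome 5), encoding the HDL receptor SR-BI, differed from the 5 genes above in that its signal in population 4 was not below that of population 1 by any of its 3 probe sets. The brightest had signals of 1216, 1452, 1754 and 1598 in populations 1 to 4. The others had 1302, 1477, 1732 and 1365, and 669.8, 873, 845 and 722. All differences between populations by the brightest probe set were within 1.44-fold, and population 4 over population 1 gave log2 ratios of 0.39, 0.07 and 0.11, beside a median of 0.36 over all 9468 genes.

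Cd36 (chromosome 5), encoding a receptor for fatty acids and thrombospondin, stayed below 100 in every population by all 3 probe sets. Its brightest probe set had signals of 57.0, 8.45, 16.0 and 15.7 in populations 1 to 4. Msr1 (chromosome 8), the class A macrophage scavenger receptor, had 30.3, 21.1, 14.8 and 5.61 by the brightest of 4 probe sets, and none of the 4 exceeded 30.3. For both genes no fold is given, and without detection calls it is not known whether these signals differ from background hybridisation.

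Counted together, 6 of the 8 genes exceeded a signal of 100 somewhere, and Cd36 and Msr1 did not. Against population 1, population 4 was at least 2-fold lower for 5 of the 6, Mrc1, Lyve1, Stab1, Stab2 and Scarf1, where 12.9% of all 9468 genes were, and at least 2-fold higher for 0, where 22.4% of all genes were. The median log2 ratio over the 6 was -1.88, beside 0.36 over all genes. Since a gene enters through the population in which it is high, and since the set was proposed with these values known, the count describes the set and supports nothing beyond it.

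The difference did not lie at the same step for every gene. From population 1 to 2, Stab1 and Stab2 were at least 2-fold lower (4.19% of all genes) and 0 of the 6 were higher (2.92%), and the median log2 ratio was -0.69 for the 6, beside 0.00 for all genes. From population 2 to 3, Lyve1 and Mrc1 were at least 2-fold higher (3.11% of all genes) and 0 were lower (0.253%), with medians of 0.43 and 0.22. From population 3 to 4, Mrc1, Lyve1, Stab1 and Scarf1 were at least 2-fold lower (12.2% of all genes) and 0 were higher (7.94%), with medians of -1.84 and 0.06. In these medians a gene below 100 in both populations, as Stab2 was in the last 2 pairs, counts as 0. Population 3 set directly against population 1 held 1 gene at least 2-fold higher, Lyve1 (5.32% of all genes), and 2 at least 2-fold lower, Stab1 and Stab2 (2.3%). Population 3 had the highest signal for Mrc1, Lyve1 and Scarb1 and population 1 for Stab1, Stab2 and Scarf1, so that no member was highest in population 4, where 51.8% of all genes were highest.

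At least 4-fold differences were fewer. From population 1 to 2 there were 0 among the 6 genes in either direction (0.665% of all genes lower and 0.0528% higher). Lyve1 alone was 4-fold higher in population 3, both against population 2 (0.275% of all genes) and against population 1 (0.422%), and 0 members were 4-fold lower in these pairs, where 0% and 0.359% of all genes were. In population 4, Mrc1 and Lyve1 passed 4-fold below population 3 (4.65% of all genes), and Mrc1 and Stab1 below population 1 (5.67%), with 0 members 4-fold higher in either pair (1.33% and 4.48%). Folds against signals below 100 are lower bounds, so these counts depend on the floor. With signals raised to 50, Stab1 and Scarf1 also passed 4-fold below population 3, with log2 ratios of -2.89 and -2.65. Lyve1 and Scarf1 then passed it below population 1 (-2.67 and -2.75), and Stab2 did in populations 2, 3 and 4 (-2.02).

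**Figure D2:**
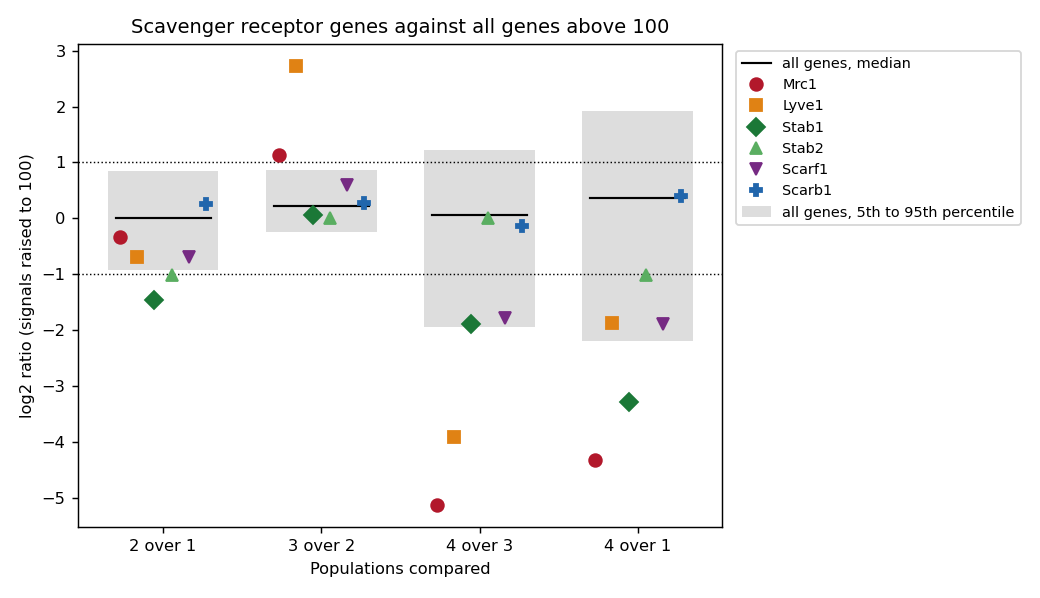
Log2 ratios (signals raised to 100) of the 6 genes above 100 for 4 comparisons of populations, 1 array each. Grey boxes span the 5th to 95th percentile and black lines the median of all 9468 genes, dotted lines mark 2-fold, and Stab2 stands at 0 where both signals lay below 100. Lyve1 lies at 2.73 for population 3 over 2, and Mrc1 at -5.13 for population 4 over 3.

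For genes read by more than 1 probe set, the scatter between probe sets gives a view of measurement error on single arrays, not of error between cultures. Over 5131 pairs of a gene's main and another probe set, the log2 ratios of population 3 over population 2 differed by a median of 0.15 (95th percentile 0.55), and over 5055 pairs those of population 4 over population 3 differed by 0.19 (0.72). The log2 ratio of Lyve1 for population 3 over population 2 was 2.73 by one probe set and 2.55 by the other. The log2 ratio of Mrc1 for the same pair, 1.14 on the deposited scale, comes from a single probe set.

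Few genes passed the limits used here for a signal that rose from population 2 to 3 and fell steeply in population 4. In all, 46 of 9468 genes (0.486%) lay at least 2-fold above population 2 in population 3 and at least 4-fold below population 3 in population 4, Lyve1 and Mrc1 among them. The limits of this shape were set after the values had been seen. No condition was set on population 1, and 26 of the 46, Mrc1 and Lyve1 included, were highest in population 3 and the other 20 in population 1. Within the 46, Lyve1 had the highest ratio of population 3 over population 2 and Mrc1 the lowest of population 4 over population 3. Others of the 46 were Cd34, a sialomucin of endothelial and progenitor cells, with signals of 2950.1, 1367, 2974 and 257 in populations 1 to 4, Klf2, a flow-responsive endothelial factor, with 1630, 1142, 2471 and 284, and Abca1, a cholesterol exporter, with 2156, 395, 1324 and 114. After scaling on the array median 12 genes (0.127%) had the shape, with Lyve1 but not Mrc1, and after quantile normalisation 17 (0.18%), again with Lyve1 only. Scaled on the hybridisation controls, 152 genes (1.58%) had it, both members included.

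The 3 members that varied at least 4-fold between populations were set beside 6053 other genes with a signal of 400 or more, by the root mean square difference of log2 ratios to population 1 over 3 populations. Stab1 had close neighbours, Adam12, a metalloprotease gene, with a difference of 0.08 and signals of 982, 389, 392 and 23.9 in populations 1 to 4, and Apbb2 (0.17) and 2900026A02Rik (0.20). Stab1, Adam12 and Apbb2 all lay below 100 in population 4. Their ratios of population 4 over population 1 were thus set by the floor and the population 1 signals. The nearest to Mrc1 were Rhoj (0.38), a small GTPase of endothelial cells with signals of 3443, 3488, 4095.5 and 170.4, Ptprb (0.40), the endothelial phosphatase VE-PTP, and Fgd5 (0.44), an exchange factor gene of endothelium. Mrc1, Ptprb and Fgd5 were likewise below 100 in population 4, so the nearness there depends on the floor. For population 3 over population 1 the log2 ratios of Rhoj, Ptprb and Fgd5 were 0.25, 0.36 and 0.09, against 0.80 for Mrc1. No gene came as near to Lyve1, for which Nuak2 (0.75), Ccm2l (0.80) and Bst2 (0.81) were the closest. Their log2 ratios of population 3 over population 1 were 1.11, 0.70 and 0.87, against 2.04 for Lyve1. In population 4, Lyve1, Nuak2 and Ccm2l were also below 100.

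**Figure D3:**
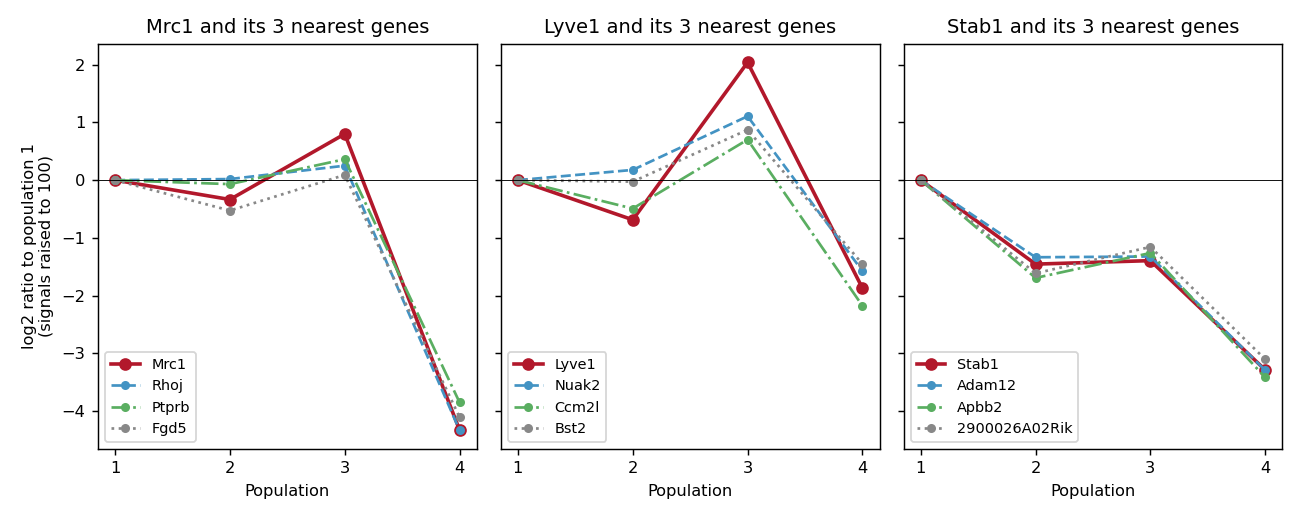
Log2 ratio to population 1 (signals raised to 100) of Mrc1, Lyve1 and Stab1 in red, each with the 3 genes of most similar profile, over 4 populations with 1 array each. Adam12 follows Stab1 with a root mean square difference of 0.08, both lying below 100 in population 4 and hence raised to it there. The peak of Lyve1 in population 3 (2.04) lies above that of Nuak2 (1.11), the nearest gene.

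Other genes of uptake were taken from lists of receptors, ligands, hyaluronan metabolism, endocytosis and lipid handling. Of 90 such genes beside the 8, 84 were measured and 55 had a signal above 100. Against population 1, population 4 was at least 2-fold lower for 17 of the 55 (30.9%, against 12.9% of all genes) and at least 2-fold higher for 3 (5.45%, against 22.4%), and their median log2 ratio was -0.24, beside 0.36 over all genes. From population 3 to 4, 18 were at least 2-fold lower (32.7%, against 12.2% of all genes) and 2 higher (3.64%, against 7.94%). From population 2 to 3, 1 was lower (1.82%, against 0.253%) and 3 were higher (5.45%, against 3.11%), and from population 1 to 2, 8 were lower (14.5%, against 4.19%) and 5 higher (9.09%, against 2.92%).

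Among the other scavenger receptors, Colec12, a class A-like collectin receptor of vascular endothelium, gave 281, 396, 351 and 53.7 through populations 1 to 4 and lay at least 2.81-fold below population 1 in population 4. It was the only one of 5 class A and related genes above 100. The lysosomal class B gene Scarb2 had 1125, 654, 1105 and 705, and Cd68, a class D gene of macrophages and other cells, had 155, 276, 236 and 173, with neither differing 2-fold between populations 4 and 1. Olr1, the class E receptor LOX-1, exceeded 100 in population 3 only, with 135. In class F, Pear1 was 2.07-fold lower in population 4 than in population 1, and Megf11 lay within 2-fold. The very low density lipoprotein receptor gene Vldlr had 914, 1390, 1385 and 363. Ager lay between 157 and 293 in all 4, and Lrp8, a receptor of the same family as Vldlr, had 95.8, 229, 110.3 and 144.

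The hyaluronan genes did not move as one. Hmmr, a hyaluronan-binding protein of the mitotic spindle, was 7.69-fold higher in population 4 than in population 1, with signals of 270.3, 895, 716 and 2077 in populations 1 to 4, the direction opposite to Lyve1 and Stab2. Cd44, the main hyaluronan receptor of leukocytes, had 1581, 1152, 1919 and 1376 and differed 1.15-fold between populations 4 and 1. Of the genes assigned to hyaluronan breakdown, Cemip2 was 5.56-fold and Hyal2 3.58-fold lower in population 4 than in population 1. The synthase gene Has2 was highest in population 2, with 109, 315, 214 and 123.

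Ligands and partners of the receptors differed strongly between populations 4 and 1 for some members. Sparc, a matrix protein that stabilin-1 takes up, had 10189.7, 7959, 9394 and 682 in populations 1 to 4, and was 14.9-fold lower in population 4 than in population 1. Tgfbi, a matrix protein with fasciclin domains like those of stabilins, had 922, 134, 136 and 44.1, thus a drop between populations 1 and 2 as seen for Stab1. The sorting adaptor genes Snx17 and Gga2 lay within 2-fold of population 1 in population 4. Among genes of dead cell recognition, Mfge8 was 5.93-fold, Gas6 at least 4.90-fold and Dock1 3.89-fold lower in population 4 than in population 1, while Pros1 differed 1.07-fold.

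Of the general machinery of endocytosis, the clathrin genes Clta and Cltc, Rab5a and Lamp1 were all within 2-fold between populations 4 and 1. Of 17 genes 2 were at least 2-fold higher in population 4 and 1 lower, beside 22.4% and 12.9% of all genes, and their median log2 ratio was -0.15, beside 0.36 for all genes. The lower one was Dab2, a clathrin adaptor for lipoprotein receptors, with 752, 135, 88.1 and 39.1 in populations 1 to 4, lower already in population 2 like the stabilin genes. Of 8 lipid handling genes above 100, 5 lay at least 2-fold below population 1 in population 4 (12.9% of all genes did) and 0 above (22.4%). Abca1 was 18.9-fold lower, Gpihbp1, which anchors lipoprotein lipase on capillaries, at least 6.51-fold, Fabp4 at least 4.25-fold and Apoe 2.45-fold lower, while Fabp5 differed 1.88-fold in the other direction.

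**Figure D4:**
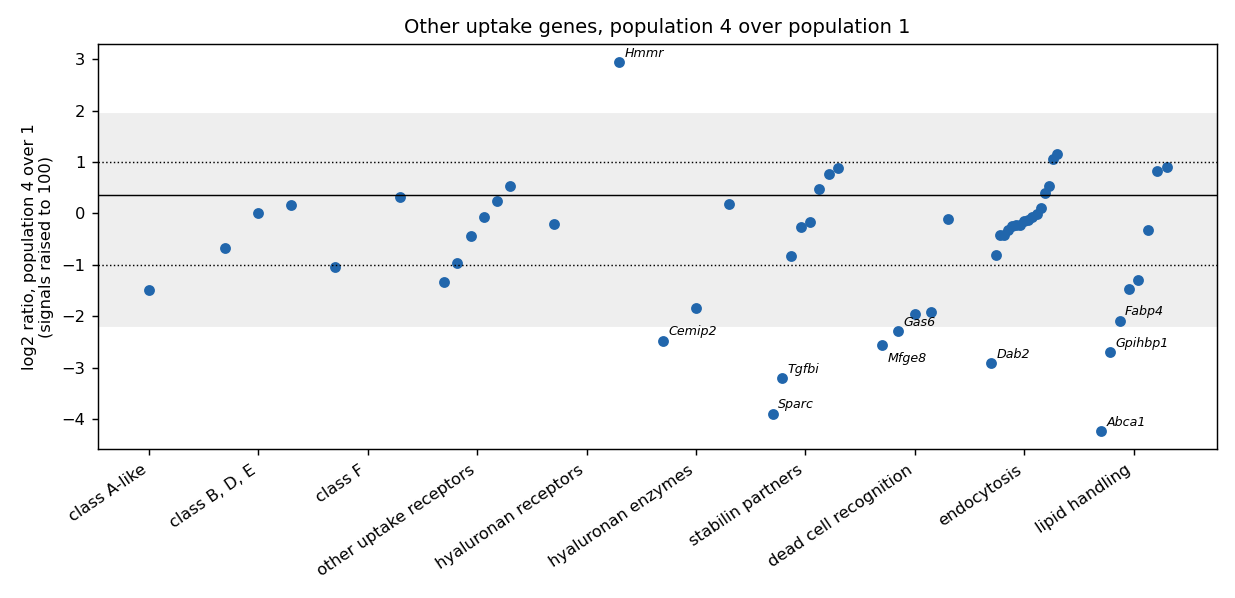
Log2 ratio of population 4 over population 1 (signals raised to 100) for the 55 other uptake genes with a signal above 100, by list, 1 array per population. The grey band spans the 5th to 95th percentile and the black line the median of all 9468 genes, dotted lines mark 2-fold, genes at least 4-fold different are named, and Olr1, below 100 in both populations, stands at 0. Abca1 lies at -4.24 and Hmmr at 2.94.

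Since Mrc1, Lyve1 and Msr1 are also genes of macrophages, macrophage markers were read in the same arrays. Of 18 markers, 1 exceeded 100 in populations 1 and 2 and 4 did in populations 3 and 4, and their summed signal was 383, 450.3, 1455 and 2066 in populations 1 to 4. The sum was thus higher in population 3 than in population 2, as were Mrc1 and Lyve1, and highest in population 4, where both genes were below 100. The part of macrophages in the values of these genes was not tested. In population 4, Tyrobp had a signal of 678, Fcer1g of 466 and Csf1r, the receptor for macrophage colony-stimulating factor, of 388. In the same order the signals were 392, 346 and 222 in population 3 and 31.2, 7.68 and 46.1 in population 2. The other 14 markers were below 100 in all 4 populations. Among them Adgre1 (F4/80) reached 33.7, C1qb 74.6 and Cx3cr1 76.2 in population 4, Lyz2 reached 70.9 in population 3, and Cd163, Itgam, C1qa and Timd4 stayed at or below 7.69. Fcer1g and Tyrobp, adaptor genes, are also expressed by other blood cells.

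Markers of sinusoidal endothelium differed among themselves. Of 11 genes, 7 exceeded 100, and their summed signal was 4356, 4409, 6773 and 1974 in populations 1 to 4. Oit3 had 202, 520.0, 936 and 24.4, and Gpr182 had 311, 313, 475 and 23.1, both highest in population 3 and below 100 in population 4 as were Mrc1 and Lyve1. Clec1b, a lectin gene of sinusoids and of platelets, had 2514, 616, 2627 and 951, and was 4.26-fold higher in population 3 than in population 2. Most of the rise of the summed signal between these populations lay in this 1 gene. Rspo3 was highest in population 2, with 558, 2076, 1836 and 389. Maf gave 487, 522, 513 and 246 and Fcgr2b 194, 219, 214 and 81.8, thus with no peak in population 3, and Wnt2 exceeded 100 in population 4 only (204). Other defining genes, Clec4g, Cd209f, Cd209g and Gata4, stayed below 100. A lower signal in population 4 was not particular to this list. At least 2-fold below population 3 lay 6 of these 7 genes, 6 of 6 arterial and 3 of 4 venous endothelial markers above 100 (12.2% of all genes). The venous gene Ephb4, with 429, 263, 454 and 78.5, was likewise highest in population 3 and below 100 in population 4. Of the lymphatic markers, Reln reached 4116 in population 4, Flt4, which early blood vessels share, had 1653, 1364, 1548 and 93.2, while Prox1 had 85.2, 192, 165 and 150.2 and Pdpn stayed below 100.

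The 10 endothelial markers had summed signals of 30876, 21477, 25069.7 and 3014, with all 10 lying at least 2-fold below population 3 in population 4, and the 7 measured erythroid markers had 246, 336, 4649.8 and 47997. Among the endothelial markers, Cdh5 encodes VE-cadherin, for which population 4 was sorted as negative, and Kdr encodes Flk1, gated in population 1. The lower signal of Cdh5 in population 4 thus follows from the sort, and with it part of the endothelial count and sum. Stromal markers, of the kind OP9 cells carry, had 4605, 3108, 2580.2 and 2147, with 6 of 11 genes above 100. The brightest of these, Col1a2, Acta2 and Col3a1, were highest in population 1, with 1988, 1173 and 658, and Dcn, Lum and Thy1 stayed at or below 38.0. Adipocyte markers (6 genes) had 1008, 461, 594 and 487, with 3 genes above 100. Most of the sum in population 1 lay in Fabp4 (425) and Lpl (363), both also counted above as lipid handling genes. Adipoq had 147, 103, 97.5 and 57.3, while Cebpa, Pparg and Lep stayed below 100. The adipocyte, stromal and endothelial sums were thus all lower in population 2 than in population 1, as were Stab1 and Stab2, and the endothelial sum was lower in population 4 than in population 3, as were Mrc1 and Lyve1. The part of these other cells in the values of the 8 genes was not tested.

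**Figure D5:**
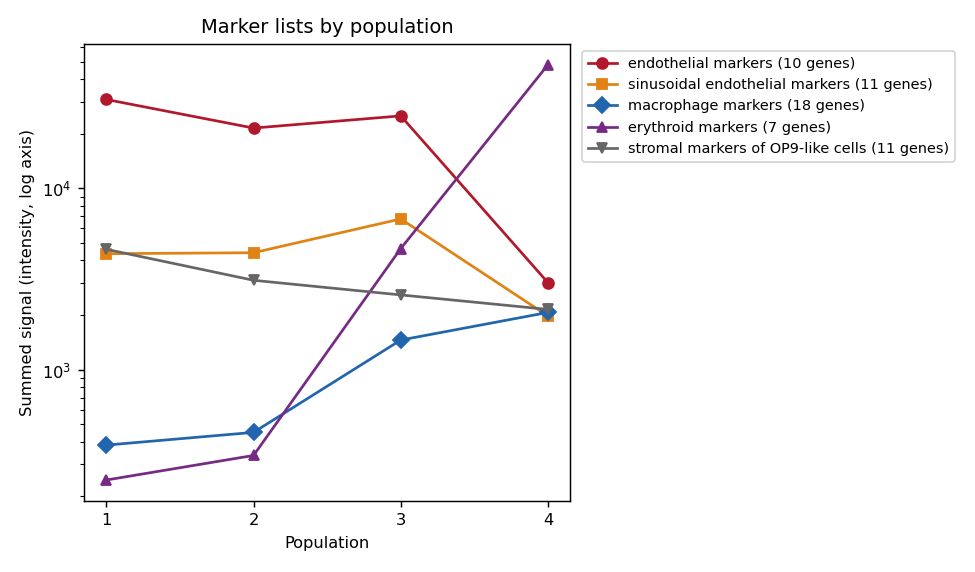
Summed signal (intensity, log axis) of 5 marker lists in populations 1 to 4, 1 array per population, with the number of measured genes in brackets. The endothelial list includes Cdh5, a gene of the sort. The macrophage sum is highest in population 4 (2066), while the sinusoidal sum is highest in population 3 (6773). Most of the rise of the sinusoidal sum from population 2 to 3 lies in Clec1b (616 and 2627).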

How the data were processed

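The authors deposited a table of Affymetrix mouse genome array signals, linear intensity values per probe set, from 1 array of each sorted population. MAS5 and GCOS 1.3 are named in the submitters' processing notes, but target scaling and detection calls are not given in the sources used here. Gene symbols came from the array annotation, updated by gene identifier through RefSeq records of assembly GRCm38.p6. Of 45101 probe sets, 34958 had 1 symbol and were used, 932 had several and 9211 had none. Where several probe sets read a gene (18194 genes in all), the one brightest on average (mean log2 signal) stood for it. For ratios, signals below 100 were raised to 100, which makes folds against them lower bounds, and the 9468 genes whose signal exceeded 100 in any population served as background. A difference of at least 2-fold was counted.

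With 1 array per population there is no replicate error and no test, the number of arrays limits the precision, and each ratio describes 2 arrays. The members and gene lists were chosen with earlier results of these data known. Every member and probe set is given. Of the other pathway lists the 4 genes with the highest signal and any gene at least 4-fold different between populations 4 and 1 are named, of marker lists up to 3 of those with the highest signal. Gpr182, Maf, Fcgr2b, Wnt2, Ephb4, the macrophage markers below 100, the stromal genes with the lowest signals and the genes set beside Lyve1 and Mrc1 for their shape were named after their values were seen. For members whose highest and lowest signals differed at least 4-fold, the 3 genes nearest in profile were found by the root mean square difference of their log2 ratios to population 1, among genes reaching a signal of 400. The computation was tested on simulated data. Alternatives were scaling on the array median, quantile normalisation, signals raised to 50 or 200, averaging over probe sets, dropping those ending in _x_at or _s_at, a 4-fold limit and, chosen after seeing the data, scaling on hybridisation controls. The comparison of population 3 with population 1 was likewise added after the data were seen. Promoter letters came from RefSeq (GRCm38.p6). Python 3.11.15, pandas 2.3.3, numpy 2.4.6 and matplotlib 3.10.9 were used. Agilent and embryo arrays and ChIP-Seq data were not analysed here.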

Additional observations from a re-analysis of the deposited data

How the results depend on the processing

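No paired analysis was possible because each population had 1 array, and no array could be left out for the same reason. No member had a probe set with several symbols, so that this alternative gave no value. No called value changed direction in any setting tried. Of 210 values of single members under other settings, 188 moved by less than 1.5-fold and 22 by more, all 22 with signals raised to 50 or 200. Many of the 188 could not move, so their number is no measure of stability. Averaging over probe sets leaves genes with 1 probe set as they were, and dropping those ending in _x_at or _s_at changed Scarb1 only. A pair with both signals below the floor stays at 0, and a pair above every floor is not changed by it. With signals raised to 50, the median over the members for population 4 was -2.77 over population 3 and -2.71 over population 1, and with signals raised to 200 it was -0.84 and -0.88. The construction of the floor sets this, since most values of population 4 lie below 100. With signals raised to 200, 2 members were lower in population 4 than in population 3 (9.34% of all genes on that floor), and 2 than in population 1 (9.56%), while 1 was lower in population 2 than in population 1 (2.83%) and 1 in population 3 than in population 1 (1.46%). After scaling on the array median, 1 member, Lyve1, lay at least 2-fold above population 2 in population 3 (1.06% of all genes), and 1 after quantile normalisation (1.23%). A limit of at least 4-fold was applied with signals raised to 100. By it 0 were lower in population 2 than in population 1, and 1 was higher in population 3 than in population 2. In population 4, 2 were lower than in population 3 and 2 were lower than in population 1. In population 3, 0 were lower than in population 1. Scaled on the hybridisation controls, chosen after seeing the data, 1 member was lower in population 2 (4.53% of all genes on that scale) and 1 in population 3 (1.14%) than in population 1, and 4 in population 4 than in population 1 (9.96%), while 2 were higher in population 3 than in population 1 (18.3%) and 3 than in population 2 (16.0%). The cause of the shifts between scalings was not tested. On that scale the median log2 ratio over all genes was 0.66 for population 3 over population 2, against 0.22 as deposited. Signals below 100 limit Cd36, Msr1, Stab2 and all values of population 4 but that of Scarb1.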
